A study of Homo sapiens with 6 samples.

Results

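The AP-1 family genes FOS, FOSB, FOSL1, FOSL2, JUN, JUNB, JUND, ATF3 and BATF were examined for acetylated lysine 27 of histone H3 (H3K27ac), a mark of active promoters and enhancers. The 9 genes were chosen by name, out of 20007 protein-coding genes, with earlier results of these data known. AP-1 is a dimer of basic leucine zipper proteins: Jun proteins pair with one another or with Fos, ATF or BATF partners, whereas Fos proteins need a Jun partner. The dimer binds a short DNA site (TGACTCA, or TGACNTCA for dimers that hold an ATF protein) and turns growth factor, stress and cytokine signals into transcription. In blood cells the family is known for roles in monocytic differentiation and in the response to kinase signaling.

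The libraries were made by CUT&Tag, in which an antibody guides a transposase that cuts and tags the DNA beside the modified histone. Both cell lines came from human acute myeloid leukemia (AML). Kasumi-1, which carries RUNX1::RUNX1T1, and MV4-11, which carries a KMT2A fusion, were each profiled with a control hairpin (NC, labelled untreated) and with a hairpin against ANP32B (sh-ANP32B). Each of the 4 groups had 1 peak list, called after replicates had been merged, and the 2 IgG libraries were not analysed here. No spread between replicates can be computed, no test was run, and every difference below describes these libraries only.

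A promoter window was the 5001 bases centered on the start (TSS) of the canonical transcript, 2500 on either side. A locus was the gene body plus 20 kb on each side. The value given for a window is the number of its bases under peaks, which measures how far the mark was called and not how strong it was. A change was called where the bases under peaks differed by at least 1.5-fold, and a peak was lost or gained where it had no overlapping base in the list it was compared with, from the same line. The lists held 22136 to 24523 peaks, and the 9 loci held 44 peaks in the Kasumi-1 control list and 42 in its knockdown list, then 33 and 36 in the MV4-11 lists. Where values are given in pairs, the control (NC) comes first and the knockdown (sh-ANP32B) second. Peaks covered 32.7 and 33.7 Mb in Kasumi-1, but 27891707 and 23004402 bases in MV4-11, so that a lower value in MV4-11 sh-ANP32B was the common case over all genes. The smallest peak also differed, from 275 bases in MV4-11 sh-ANP32B to 357 bases in Kasumi-1 NC. So did the smallest gap between peaks, from 276 to 358 bases in the same lists.

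The line names were checked against known markers before the lines were compared. HOXA9, high in KMT2A-rearranged leukemia, had 4335 and 4707 promoter bases in the libraries labelled Kasumi-1 and 769 and 659 in those labelled MV4-11, the reverse of the labels. HOXA10 and FLT3 also had more promoter bases in the libraries labelled Kasumi-1, whereas MEIS1 had 3103 and 3264 bases there and 3337 and 3123 in those labelled MV4-11. Of the Kasumi-1 markers, RUNX1T1, POU4F1 and KIT had no promoter peak in any library and CD34 had 180 and 132 bases in the libraries labelled Kasumi-1 only. The myeloid gene SPI1 had 3008 to 3127 bases in all 4 libraries, and MPO had none. CEBPA, a granulocytic factor, had 3148 and 3103 bases in the libraries labelled Kasumi-1 and 1722 and 0 in those labelled MV4-11, and CD33 had 1464 and 1411 in the former and none in the latter. Of 5 markers of other cell types, CD3E, EPCAM, COL1A1 and ALB had no promoter peak, and the B-cell gene CD79A had 1127 to 1519 bases. Kasumi-1 and MV4-11 therefore mean the libraries labelled so. How many hairpins or clones stood behind a library is not given in the sources used here, and peak lists do not measure how far ANP32B was reduced.

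The sequences that the peaks covered or left are given first, on hg38 and 5′ to 3′ along the strand of the gene, with a match to an AP-1 motif in capitals. The 250 bases upstream of JUN, at chr1:58784049-58784298 on the minus strand, are shown because they lay wholly under a peak in all 4 libraries. They overlap an exon of a neighboring annotated transcript and hold the ATF-type motif TGACATCA. Those of JUND, at chr19:18281623-18281872 on the minus strand, are shown because they lay wholly under a peak in 3 libraries and had 0 of 250 bases covered in Kasumi-1 sh-ANP32B.
JUN upstream: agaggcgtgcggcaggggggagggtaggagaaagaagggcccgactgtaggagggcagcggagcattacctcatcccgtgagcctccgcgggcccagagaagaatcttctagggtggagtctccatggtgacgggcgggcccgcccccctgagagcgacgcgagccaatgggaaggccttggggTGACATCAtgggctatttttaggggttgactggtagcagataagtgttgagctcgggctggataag
JUND upstream: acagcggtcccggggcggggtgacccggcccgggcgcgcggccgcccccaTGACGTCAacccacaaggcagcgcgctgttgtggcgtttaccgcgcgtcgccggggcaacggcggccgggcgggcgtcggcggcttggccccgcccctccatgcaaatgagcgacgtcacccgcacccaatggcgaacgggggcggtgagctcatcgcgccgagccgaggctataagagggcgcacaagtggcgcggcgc

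The 250 bases upstream of BATF, at chr14:75522205-75522454 on the plus strand, lay wholly under a peak in all 4 libraries. Those of ATF3, at chr1:212608420-212608669 on the plus strand, had 174 bases covered in MV4-11 NC and 0 in the other 3 libraries. Neither holds a motif match.
BATF upstream: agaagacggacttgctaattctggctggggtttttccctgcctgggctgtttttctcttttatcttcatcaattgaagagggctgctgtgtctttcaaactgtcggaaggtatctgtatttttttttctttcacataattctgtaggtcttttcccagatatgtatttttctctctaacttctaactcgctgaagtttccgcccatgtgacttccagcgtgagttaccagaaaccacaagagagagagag
ATF3 upstream: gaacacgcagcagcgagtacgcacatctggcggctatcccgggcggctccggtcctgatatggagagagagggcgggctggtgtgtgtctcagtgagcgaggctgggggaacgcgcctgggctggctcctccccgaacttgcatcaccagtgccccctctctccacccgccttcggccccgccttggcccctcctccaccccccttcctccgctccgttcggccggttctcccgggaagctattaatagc

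Away from promoters, 2 stretches of 200 bases with the motif (TGAGTCA, the reverse complement of TGACTCA) are shown. That upstream of FOSB, at chr19:45456013-45456212, is centered on a motif looked for within the part of the peak common to all 4 libraries. Its coverage in all 4 (200 and 200 bases in Kasumi-1, 200 and 173 in MV4-11) follows from that choice. That in intron 3 of FOSL2, at chr2:28409368-28409567, was wholly covered in 3 libraries and had 0 bases covered in Kasumi-1 sh-ANP32B.
FOSB upstream peak: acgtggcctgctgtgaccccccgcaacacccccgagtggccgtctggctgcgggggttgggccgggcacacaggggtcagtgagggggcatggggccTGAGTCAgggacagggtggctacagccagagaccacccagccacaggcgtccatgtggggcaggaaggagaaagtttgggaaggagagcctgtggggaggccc
FOSL2 intron 3: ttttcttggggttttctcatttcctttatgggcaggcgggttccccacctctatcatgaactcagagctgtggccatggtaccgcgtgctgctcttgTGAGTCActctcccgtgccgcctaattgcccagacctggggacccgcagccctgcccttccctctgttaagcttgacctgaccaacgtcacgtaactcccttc

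From 250 bases before to 50 bases after the canonical TSS, TGACTCA (either strand) was found in 2 of 9 members, FOSL1 and FOSL2, and in 3.57% of all promoters. TGACNTCA was found in JUN and JUND and in 7.24% of all promoters. The CArG box, the site of serum response factor, was found within these 300 bases in 0 of 9 members and in 1.20% of all promoters. CArG boxes farther upstream were not counted, so the 0 does not cover them. These letters alone do not say whether a factor binds. The median GC content of the members' stretches was 65.7%, against 63.7% over all promoters, with BATF lowest at 46.0% and JUND highest at 77.0%. In the central 500 bases of the locus peaks, TGACTCA occurred in 9.09% and 7.14% of peaks in Kasumi-1 and 12.1% and 16.7% in MV4-11, against 9.64%, 9.81%, 14.5% and 16.9% of all peaks of the same lists.

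Most AP-1 family promoters carried the mark in both lines. A promoter peak was present for 9 and 8 of 9 members in Kasumi-1 (47.7% and 45.3% of all genes) and for 8 and 8 of 9 in MV4-11 (35.8% and 28.6%). The member without one was ATF3 in Kasumi-1 sh-ANP32B and FOSB in both MV4-11 libraries. The median over the members was 3223 and 3257 promoter bases in Kasumi-1, against 2356 and 2665 in MV4-11, and their median percentile among all genes was 96.1 and 96.0, then 96.0 and 98.3. Over all genes with a peak the median was 1500 and 1522 bases in Kasumi-1, against 1046 and 910 in MV4-11.

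**Figure D1:**
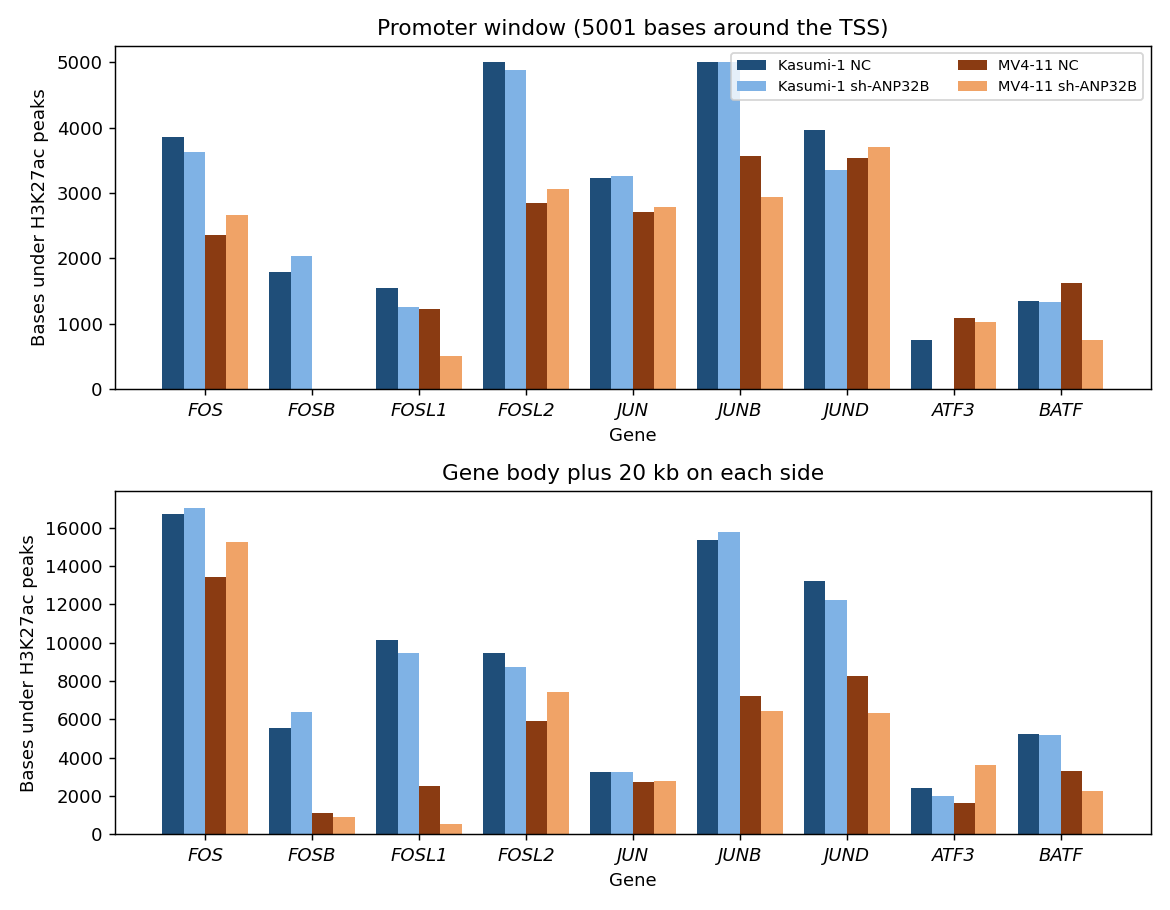
Bars give bases under H3K27ac peaks for each gene in the 4 libraries, in the promoter window (top) and in the locus (bottom), with 1 library per bar and so no error bars. FOSB has no promoter bar in MV4-11, ATF3 has none in Kasumi-1 sh-ANP32B, and FOSL1 in MV4-11 shows the lowest locus value, 516 bases in sh-ANP32B.

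Among the Jun genes, JUN, the main transactivating partner of Fos proteins, had a single peak in its locus in each library. The peak spanned the TSS and was 3223 and 3257 bases wide in Kasumi-1, against 2711 and 2785 in MV4-11. Its upstream edge lay 1126 to 1164 bases before the TSS in all 4 libraries, and its downstream edge 2086 and 2093 bases after it in Kasumi-1, against 1546 and 1658 in MV4-11. The difference between the lines was thus on the gene side of the peak, and the knockdown libraries differed from their controls by 34 and 74 bases.

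JUNB, a Jun protein that can oppose JUN and that restrains myeloid proliferation, had its whole promoter window covered in both Kasumi-1 libraries (5001 bases). In MV4-11 the window had 3572 and 2932 bases. The Kasumi-1 promoter peak was 8882 bases wide in NC and 10194 in sh-ANP32B, at the 99.6 and 99.8 percentiles of width in their lists. The MV4-11 NC peak over the TSS was 3237 bases wide, and in its place MV4-11 sh-ANP32B had peaks of 2133 and 648 bases. The gap between these peaks was narrower than the smallest gap in either Kasumi-1 list. Where peaks closer than 358 bases were joined and those under 357 dropped in every list, the JUNB promoter difference in MV4-11 was smaller. It was then -6.10 percentage points of the window covered, against -12.8. Over the JUNB locus the values were 15324 and 15790 bases in Kasumi-1, against 7220 and 6406 in MV4-11, and the locus also held the promoters of HOOK2 and RNASEH2A. RNASEH2A had 1810 and 1790 promoter bases in Kasumi-1 and 0 in both MV4-11 libraries.

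JUND, the Jun protein often present in resting cells, was covered over similar lengths in all libraries, with 3965 and 3357 promoter bases in Kasumi-1 against 3538 and 3698 in MV4-11. The 3965-base peak of Kasumi-1 NC spanned the TSS. In Kasumi-1 sh-ANP32B it was represented by peaks of 2249 and 1108 bases, with the TSS and the 250 bases printed above in the gap between them. Upstream, a Kasumi-1 peak of 5147 and 4641 bases began 8124 and 8118 bases from the TSS. The overlapping MV4-11 peak was 3168 bases wide in NC and 845 in sh-ANP32B, and the locus value of JUND in MV4-11 was 8232 and 6309 bases.

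Among the Fos genes, FOS, the prototype immediate early gene, had 3862 and 3633 promoter bases in Kasumi-1, against 2356 and 2665 in MV4-11. Its locus carried the most bases under peaks among the members in each library, with 16716, 17043, 13404 and 15225 bases in 10, 9, 8 and 9 peaks. The widest of these lay downstream of the gene and measured 5962 and 6310 bases in Kasumi-1, against 5686 and 5606 in MV4-11, at the 98.6 to 99.5 percentiles of width. The stretch common to all 4 libraries was 5581 bases long (chr14:75293960-75299540), started 15132 bases after the TSS and held 0 matches to TGACTCA and 2 to TGACNTCA. In MV4-11 a peak of 1012 bases was lost, and peaks of 583 and 319 bases were gained. The peak of 583 bases lay over exon 4, where both Kasumi-1 libraries also had one. A peak upstream of FOS that overlapped no Kasumi-1 peak measured 539 and 1664 bases in MV4-11.

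FOSB, another immediate early Fos gene, was the member with a promoter peak in 1 line alone. Its promoter window had 1786 and 2028 bases in Kasumi-1 and 0 in both MV4-11 libraries. The Kasumi-1 peak began 486 bases after the TSS in NC and 268 after it in sh-ANP32B, so that the TSS itself was under no peak in any library. The locus had 5517 and 6375 bases in Kasumi-1, against 1102 and 902 in MV4-11, where the peak printed above and a peak downstream of the gene were the only ones, and both overlapped Kasumi-1 peaks. Part of the locus lies in the neighboring genes ERCC1 and RTN2.

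FOSL2, a Fos protein without a strong transactivation domain, had 5001 and 4883 promoter bases in Kasumi-1, against 2844 and 3067 in MV4-11. A single peak of 5855 and 5612 bases covered the promoter in Kasumi-1, and 3 peaks did so in both MV4-11 libraries. The intron 3 peak shown above was 986 bases wide in Kasumi-1 NC, began 16090 bases after the TSS and was lost in Kasumi-1 sh-ANP32B. That library had a peak of 682 bases nearby, which ended 15963 bases after the TSS. In MV4-11 the intron 3 peak was 720 bases wide in NC and 1001 in sh-ANP32B. The peak upstream of FOSL2 measured 1090 and 1611 bases in Kasumi-1, against 402 and 1166 in MV4-11, wider in the knockdown library of each line.

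FOSL1, a Fos protein induced by sustained ERK signaling, had 1541 and 1253 promoter bases in Kasumi-1, against 1219 and 506 in MV4-11. The MV4-11 peak began 22 bases after the TSS in NC and 539 bases after it in sh-ANP32B. The FOSL1 locus had 10145 and 9471 bases in Kasumi-1, against 2506 and 516 in MV4-11. Of the 3 MV4-11 NC peaks, that of 954 bases over exon 4, which also lies in the promoter window of CCDC85B, and that of 333 bases in the window shared by C11orf68 and DRAP1 were lost. In Kasumi-1 the same windows were among the broad ones: CCDC85B had 4616 and 5001 promoter bases, so most of the FOSL1 locus value there came from neighboring promoters. Without peaks in other genes' promoter windows, the FOSL1 locus was at least 1.5-fold lower in Kasumi-1 sh-ANP32B than in NC. An upstream peak of 747 bases in Kasumi-1 NC was lost.

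Of the ATF and BATF members, ATF3, a stress-induced gene, had 754 and 0 promoter bases in Kasumi-1, against 1080 and 1022 in MV4-11. The lost Kasumi-1 peak began 234 bases after the canonical TSS, in intron 1. Downstream of the gene a Kasumi-1 peak of 1103 bases in NC was 2019 bases wide in sh-ANP32B, and MV4-11 sh-ANP32B had gained peaks of 1364 and 717 bases in the same region, where MV4-11 NC had none. The ATF3 locus therefore had 2392 and 2019 bases in Kasumi-1, against 1646 and 3590 in MV4-11. With a flank of 10 kb, which leaves this region out, the MV4-11 difference had the opposite sign (-0.18 percentage points of the window covered).

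BATF, which pairs with Jun proteins in lymphoid and myeloid cells and has no transactivation domain, had 1346 and 1339 promoter bases in Kasumi-1, against 1626 and 751 in MV4-11. The MV4-11 peak over the TSS reached from 813 bases before it to 812 after it in NC, and from 290 before to 460 after in sh-ANP32B. The intron 2 peak was present in all 4 libraries, at 1788 and 1841 bases in Kasumi-1, against 1020 and 1013 in MV4-11.

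**Figure D2:**
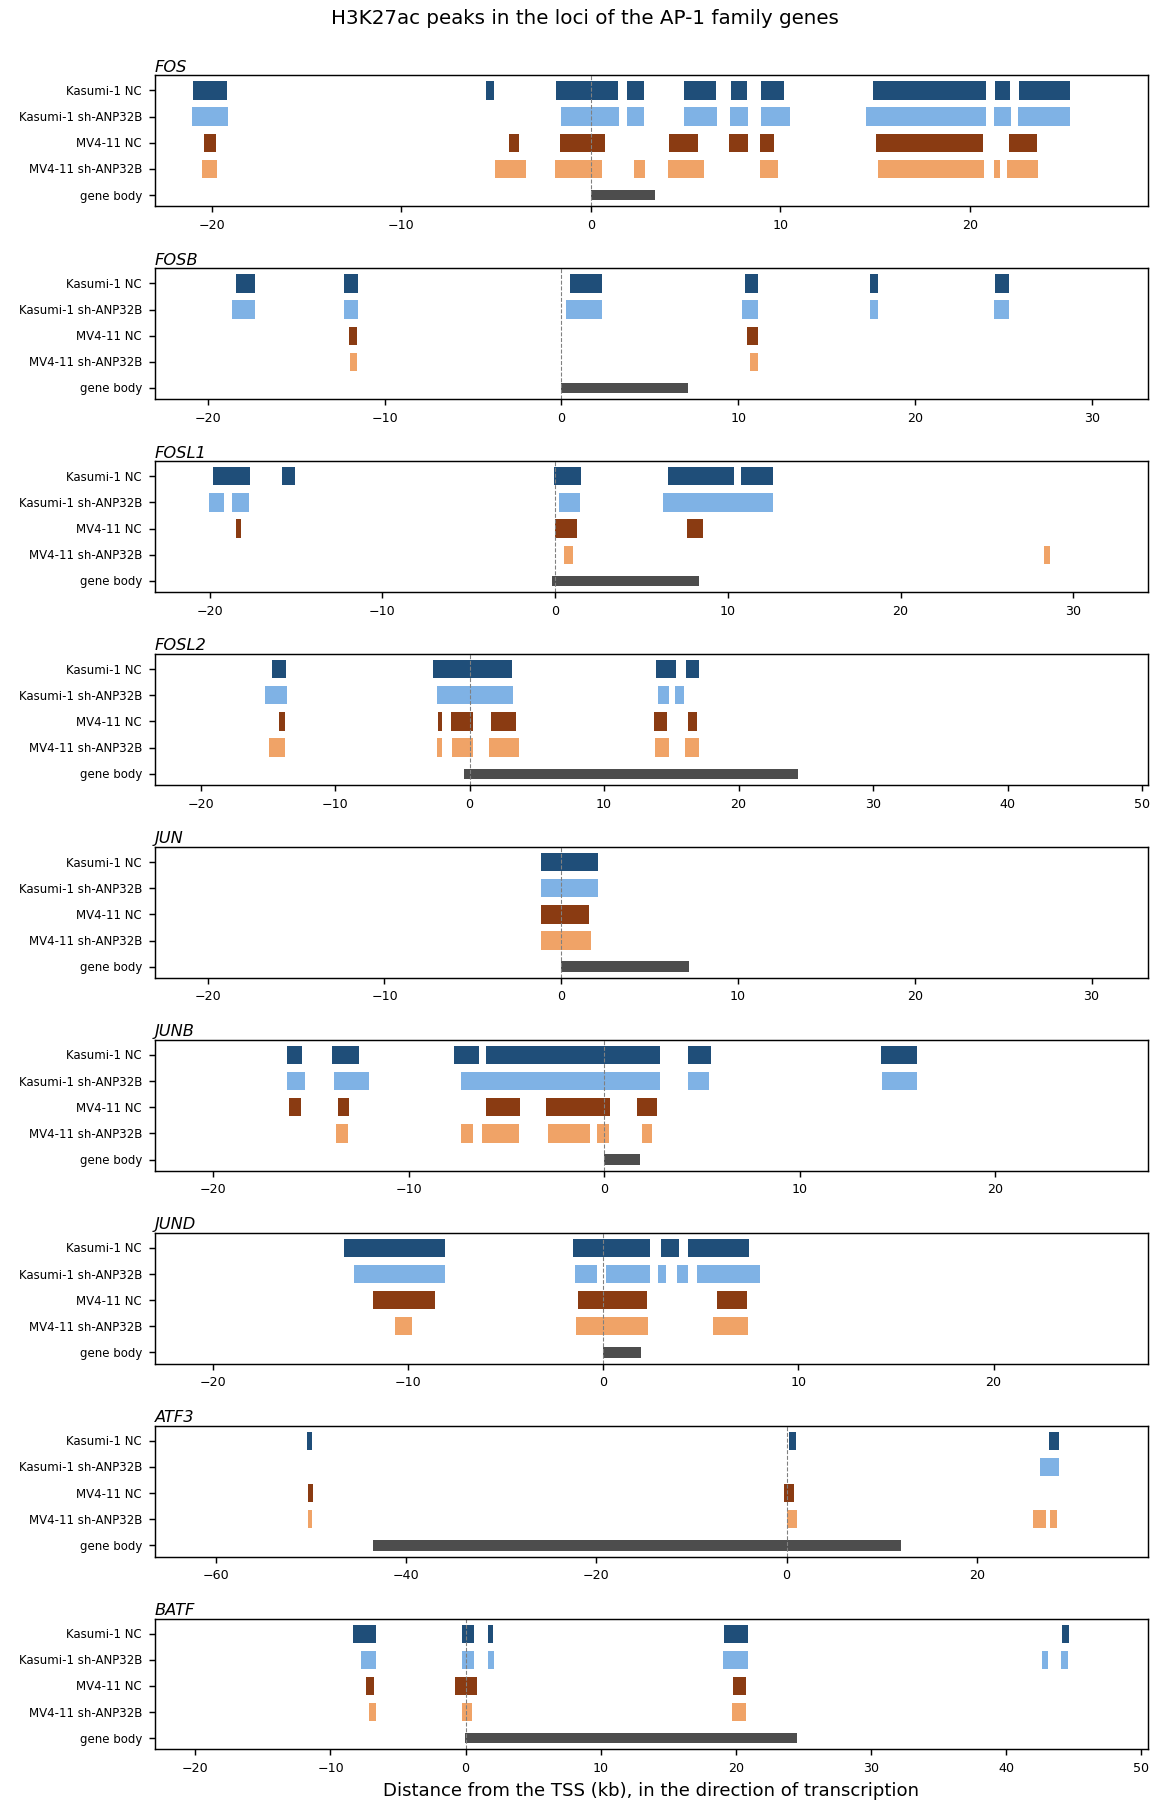
Each panel shows 1 gene, with peaks as bars by library against distance from the TSS in kb along the direction of transcription, the gene body in grey and the TSS as a dashed line. The wide block downstream of FOS is in all 4 rows, JUN has 1 peak per row, and the ATF3 panel shows the downstream peaks of MV4-11 sh-ANP32B that MV4-11 NC lacked.

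Kasumi-1 sh-ANP32B was compared with Kasumi-1 NC over the members. Promoter bases were lower for 6 of 9 (49.9% of all genes with a peak in either library) and higher for 2 of 9 (48.9%), and JUNB was covered fully in both. FOSL2 and JUNB filled the window in NC, so neither could be higher. The one member at least 1.5-fold lower was ATF3 (14.6% of all genes), which was also the one lost (6.79%), and 0 of 9 were at least 1.5-fold higher (4.86%). FOS, FOSL2, JUNB and JUND, with 3862, 5001, 5001 and 3965 bases in NC, could not reach 1.5-fold higher within the 5001-base window. No member lacked a control peak to gain one (1.60% of all genes without one did). The summed promoter bases of the members were 0.935 times the control value, against 0.960 over all genes. With 1000 bases to each side of the TSS, 4 of 9 members were lower, against 48.4% of all genes, and 1 of 9 was higher, against 39.8%. FOS, FOSL2, JUN, JUNB and JUND were wholly covered in that window in NC, so none of them could be higher there. Over the loci, 5 of 9 were lower (46.0%) and 4 higher (53.8%), and 0 of 9 passed 1.5-fold in either direction (8.79% and 5.65%).

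In MV4-11 a smaller share of the members than of all genes had fewer promoter bases in the knockdown library. Promoter bases in sh-ANP32B were lower for 4 of the 8 members with a peak, FOSL1, JUNB, ATF3 and BATF, against 78.1% of all genes. They were higher for the other 4, FOS, FOSL2, JUN and JUND, against 21.5% of all genes. FOSL1 and BATF were at least 1.5-fold lower, 2 of 8 against 45.0%, with 0 of 8 at least 1.5-fold higher (7.28%) and 0 of 8 lost (24.4%). JUNB and JUND, with 3572 and 3538 bases in NC, could not reach 1.5-fold higher within the 5001-base window. FOSB, without a control peak, gained none (2.45%). The summed promoter bases were 0.920 times the control value, against 0.721 over all genes, and the median log2 ratio was -0.02 against -0.27. These counts depended on the window: with 1000 bases to each side of the TSS, 5 of 8 members were lower, FOS among them, against 76.8% of all genes, and 1 of 8, FOSL2, was higher, against 20.7%. JUN and JUND were wholly covered in the narrower window in both MV4-11 libraries, so neither could be higher there. The higher share of members with more bases was thus not seen in that window, which could not show it for JUN and JUND.

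The genes were also split by the promoter bases of the control, a split made after the values had been seen. In Kasumi-1, 3 of 5 members with at least 2000 bases were lower (47.5%) and 0 of 5 at least 1.5-fold lower (4.20%), and 3 of 4 with fewer bases were lower (52.2%) and 1 of 4 at least 1.5-fold lower (19.7%). Among genes with at least 2000 promoter bases in MV4-11 NC, 1 of 5 members (JUNB) was lower, against 82.6% of all such genes, and 0 of 5 were at least 1.5-fold lower, against 24.6%. Among genes with fewer bases, 3 of 3 members were lower, against 81.3%, and 2 of 3 were at least 1.5-fold lower, against 51.7%. With so few members, these shares are a description. Over the MV4-11 loci, 5 of 9 were lower (75.9%) and 4 higher (23.9%), with FOSL1 at least 1.5-fold lower (39.4%) and ATF3 at least 1.5-fold higher (7.66%).

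**Figure D3:**
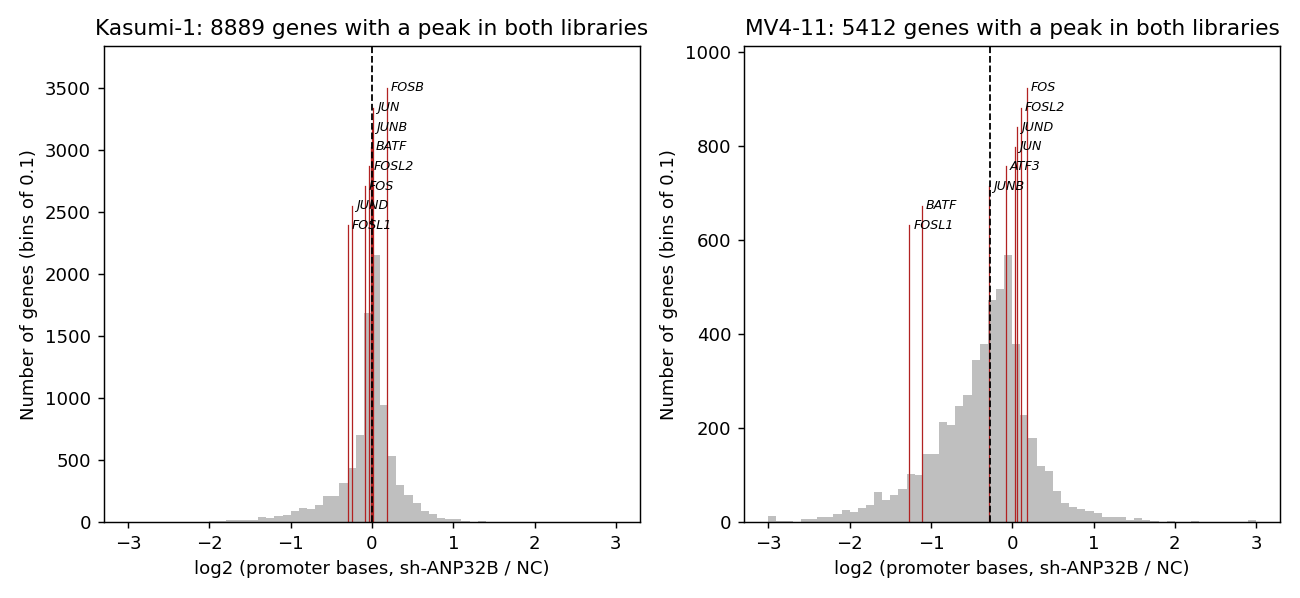
Grey bars count genes by the log2 ratio of promoter bases in sh-ANP32B to NC, for the 8889 genes in Kasumi-1 and 5412 in MV4-11 with a peak in both libraries; values beyond 3 in size sit in the end bins. Red lines mark the members, of which ATF3 in Kasumi-1 and FOSB in MV4-11 have no ratio, and the dashed line is the median of all genes (0.00 in Kasumi-1, -0.27 in MV4-11), with FOSL1 and BATF far to its left in MV4-11.

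Peak by peak, 5 of 44 locus peaks of Kasumi-1 NC were lost (11.4%, against 2049 of 22768 peaks in that whole list) and 1 of 42 of Kasumi-1 sh-ANP32B was gained (2.38% against 13.2%). In MV4-11, 4 of 33 were lost (12.1% against 29.1%) and 6 of 36 gained (16.7% against 17.7%). The lost and gained peaks were 319 to 1364 bases wide. Counts depended on the rule: where an overlap of at least 50% of each peak was needed, the lost and gained counts were 9 and 7 in Kasumi-1, against 9 and 12 in MV4-11. The shares over all peaks were not computed under that rule, so these counts have no reference.

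Between the control libraries, promoter bases were higher in Kasumi-1 than in MV4-11 for 7 of 9 members (83.9% of all genes), and lower for ATF3 and BATF (15.9%). At least 1.5-fold higher were FOS, FOSB and FOSL2, 3 of 9 against 61.9%, and 0 of 9 were at least 1.5-fold lower (5.84%). JUNB and JUND, with 3572 and 3538 bases in MV4-11 NC, could not reach 1.5-fold higher within the 5001-base window. With 5000 bases to each side, FOSB, FOSL2, JUNB and JUND were at least 1.5-fold higher, and FOS was not. The share over all genes was not computed for that window. Over the loci 9 of 9 were higher in Kasumi-1 (73.1%), 6 of 9 by at least 1.5-fold (50.9%), with 0 at least 1.5-fold lower (14.8%). Covered length and the smallest peak also differed between the lines, and their part in these differences was not tested.

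Other genes of the pathway were read in the same way, from lists given in the processing notes. Over all genes with a peak in either library, 49.9% had fewer and 48.9% more promoter bases in the Kasumi-1 knockdown library, and 78.1% and 21.5% did in MV4-11. Of 16 relatives in the basic leucine zipper group, 6 had fewer and 5 more of the 12 with a peak in Kasumi-1, and 10 had fewer and 1 more of the 11 with a peak in MV4-11. At least 1.5-fold lower were 1 of 12 in Kasumi-1 (14.6% of all genes) and 3 of 11 in MV4-11 (45.0%). In both lines 0 were at least 1.5-fold higher (4.86% and 7.28%). MAFK, a small Maf partner, had 1377 and 899 bases in the Kasumi-1 and MV4-11 controls and 0 in both knockdown libraries.

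Of 10 upstream kinases and factors, 9 had a peak in Kasumi-1, of which 8 were lower and 1 higher, with 4 at least 1.5-fold lower (14.6% of all genes). In MV4-11 8 had a peak, of which 8 were lower and 0 higher, with 6 at least 1.5-fold lower (45.0% of all genes). MAPK3, which encodes ERK1, had 1511 and 451 bases in Kasumi-1, against 783 and 0 in MV4-11. MAPK8, which encodes the Jun kinase JNK1, had 366 and 415 bases in the controls and 0 in both knockdown libraries. ELK4, a partner of serum response factor, had 1254 and 440 bases in Kasumi-1, against 679 and 291 in MV4-11.

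Of 13 immediate early genes outside the family, 9 were lower (49.9% of all genes) and 3 higher (48.9%) of the 13 with a peak in Kasumi-1, and 7 were lower (78.1%) and 5 higher (21.5%) of the 12 with a peak in MV4-11. At least 1.5-fold lower were 3 of 13 in Kasumi-1 (14.6%) and 5 of 12 in MV4-11 (45.0%). In both lines 0 were at least 1.5-fold higher (4.86% and 7.28%). IER3, an early stress gene, had 1141 and 559 bases in Kasumi-1, against 387 and 0 in MV4-11. KLF2, a zinc finger factor, had 883 and 0 in Kasumi-1, against 1519 and 944 in MV4-11. Of 9 known AP-1 targets, 3 were lower (49.9%) and 4 higher (48.9%) of the 7 with a peak in Kasumi-1, and 2 were lower (78.1%) and 4 higher (21.5%) of the 6 with a peak in MV4-11. HMOX1, the heme oxygenase gene, had 775 and 1197 bases in Kasumi-1, against 358 and 651 in MV4-11. PLAUR, the urokinase receptor gene, had 2085 and 3263 in Kasumi-1, against 590 and 1394 in MV4-11. HMOX1 and PLAUR were thus at least 1.5-fold higher in the knockdown library of each line. That is 2 of 7 in Kasumi-1 (4.86% of all genes) and 2 of 6 in MV4-11 (7.28%). At least 1.5-fold lower were 1 of 7 in Kasumi-1 (14.6%) and 0 of 6 in MV4-11 (45.0%).

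**Figure D4:**
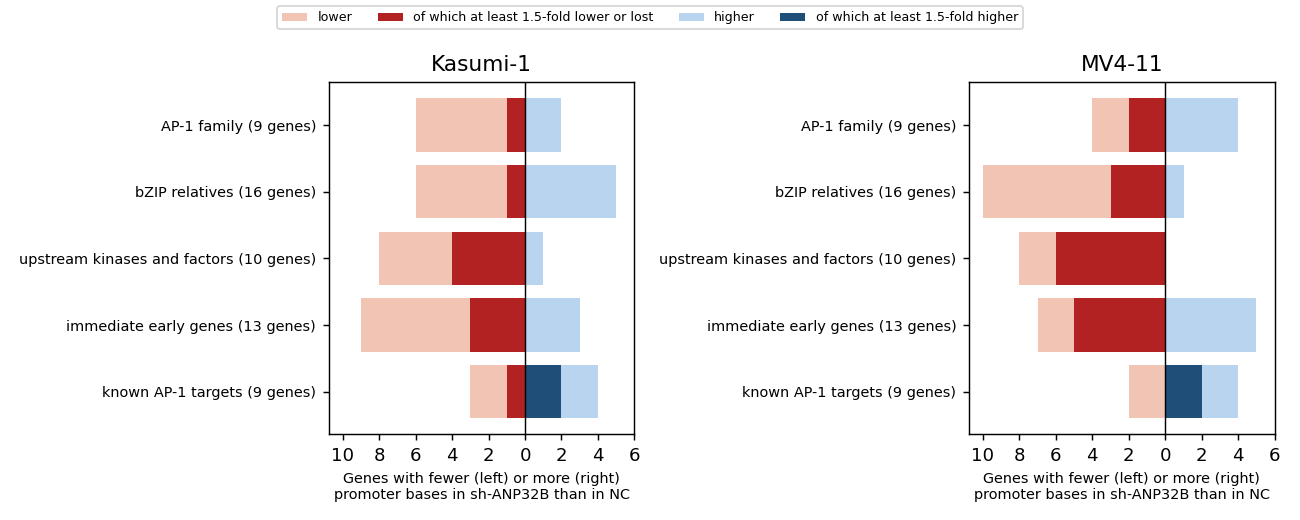
Bars count the genes of each list with fewer (left) or more (right) promoter bases in sh-ANP32B than in NC, and the dark part counts those past 1.5-fold. In MV4-11, where 78.1% of all genes with a peak were lower, the AP-1 family has 4 lower and 4 higher (5 and 1 with 1000 bases to each side of the TSS). JUN and JUND were wholly covered in that narrower window in both MV4-11 libraries.

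For each member, the gene with the most similar promoter values over the 4 libraries was found by the summed absolute difference in bases. FOSB was closest to CCDC106 (23 bases in sum), JUNB to TMC6 (93) and BATF to ATXN10 (208). ATF3 was closest to MYSM1 (222), FOSL1 to USP39 (281) and JUN to ITGB2 (293). FOS was closest to HYAL3 (446), FOSL2 to ANKRD13D (545) and JUND to ENSG00000285133 (696).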

How the data were processed

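H3K27ac CUT&Tag libraries of Kasumi-1 and MV4-11, NC and sh-ANP32B, were used with groups from the labels. The authors aligned reads to hg38 with Bowtie2, removed PCR duplicates with Picard, merged replicates with samtools and called peaks with MACS at a q-value of 0.01. The submitters' processing notes name Bowtie2 2.4.4 and MACS3 3.0, while the study's methods name other versions and MACS2. The deposited lists give start, end and length in bases, with no score, height or p-value, and depth is unknown. Whether IgG served as the control is not stated.

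Bases under peaks were computed (Python 3.11.15, numpy 2.4.6, pandas 2.3.3, interval code tested on simulated data) for 20007 genes of GENCODE 44 on chromosomes 1 to 22, X and Y. Genes named were the members, genes with a TSS in a member locus, listed genes changed at least 1.5-fold the same way in both lines, the nearest gene by promoter values, and markers. Members and lists were chosen with earlier results of these data known. Lists were the relatives ATF2, ATF4, ATF7, BATF2, BATF3, JDP2, MAF, MAFF, MAFG, MAFK, CREB1, CREM, NFE2, NFE2L2, BACH1 and BACH2, the kinases and factors MAPK3, MAPK8, MAPK9, MAPK14, MAP2K4, MAP2K7, ELK1, ELK3, ELK4 and SRF, the early genes EGR1, EGR2, EGR3, IER2, IER3, IER5, DUSP1, NR4A1, ZFP36, KLF2, KLF4, KLF6 and BTG2, and the targets CCND1, CD44, CXCL8, HMOX1, MMP9, PLAU, PLAUR, TIMP1 and VEGFA. Further genes of these lists are not reported here and entered no count. Alternatives changed the windows, the peaks kept and the overlap needed. Sequences are from the hg38 genome, which matched RefSeq promoters of 8 members.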

Additional observations from a re-analysis of the deposited data

Results flagged for a closer look

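Some members had values that moved in opposite directions in the lines, from 1 library pair per line, and these differences between the lines were not tested. For promoter bases, sh-ANP32B minus NC was -229 for FOS, -118 for FOSL2 and -608 for JUND in Kasumi-1, and 309, 223 and 160 in MV4-11. With 1000 bases to each side, the FOS difference in MV4-11 had the opposite sign (-8.80 percentage points of the window covered), so FOS was then not higher in either line. For locus bases it was 858 for FOSB and 466 for JUNB in Kasumi-1 and -200 and -814 in MV4-11. With a flank of 10 kb the JUNB difference in Kasumi-1 was -0.23 percentage points, of the same sign as in MV4-11. It was -722 for FOSL2 and -373 for ATF3 in Kasumi-1 and 1526 and 1944 in MV4-11. With that flank the ATF3 difference in MV4-11 was -0.18 percentage points, and with the 10000 widest peaks that in Kasumi-1 was 2.12.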

How the results depend on the processing

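Of 536 values under the alternatives, 328 stayed close to those reported, 207 moved and 1 that had passed 1.5-fold turned sign. Close meant counts within 1.5 times, and single genes within an interval around the reported difference in covered share. That interval took each base of a window as independent, which bases under the same peak are not. It therefore only sorts values and measures no uncertainty. The value that turned sign was the ATF3 locus in MV4-11 with a flank of 10 kb, at -0.18 percentage points. The downstream peaks lie outside that flank. Of 342 single-gene values, 12 more turned sign without having passed 1.5-fold, among them FOS promoter bases in MV4-11 with 1000 bases to each side (-8.80), the FOS, FOSL1 and JUNB loci in Kasumi-1 with a flank of 10 kb (-0.62, 1.32 and -0.23), and JUND and BATF promoter bases between the lines with the sh-ANP32B libraries (-6.82 and 11.8). For other values the cause was not tested. With 1000 bases to each side, 1 member was higher in Kasumi-1 and 1 in MV4-11, and 1 was at least 1.5-fold lower in Kasumi-1 than in MV4-11 NC. That count was also 1 with peaks of at least 500 bases, 2 with the 10000 widest peaks, and 1 with the sh-ANP32B libraries in place of NC, where 5 were at least 1.5-fold higher. For loci with a flank of 10 kb, 1 member was at least 1.5-fold lower in Kasumi-1 sh-ANP32B, 0 were at least 1.5-fold higher in MV4-11 and 1 was lower in Kasumi-1 than in MV4-11 NC. With peaks of at least 500 bases, 2 loci were at least 1.5-fold lower in MV4-11. With the 10000 widest peaks, 1 locus was at least 1.5-fold lower and 2 higher in Kasumi-1, 3 lower and 2 higher in MV4-11, and between the lines 1 was lower, also by 1.5-fold. Without peaks in other genes' promoter windows, 1 locus, FOSL1, was at least 1.5-fold lower in Kasumi-1 sh-ANP32B. With the sh-ANP32B libraries, 1 locus was lower in Kasumi-1 than in MV4-11, also by 1.5-fold. In MV4-11, split at 2000 promoter bases in NC, 1 wide member was lower and 0 by 1.5-fold, and 0 narrow members were higher. With an overlap of at least 50%, 9 peaks were lost and 7 gained in Kasumi-1 and 9 and 12 in MV4-11. Counting only peaks 1000 or more bases wide, 0 and 0 were lost and gained in Kasumi-1 and 1 and 1 in MV4-11. For most of these alternatives the share over all genes or peaks was not computed. It was computed for fewer or more bases after knockdown with 1000 bases to each side, and for lower values in the split at 2000 bases. The other counts cannot be read as particular to the members. No paired analysis was possible because each group had 1 library and the labels give no replicate numbers, and no library could be left out for the same reason. Unknown depth limits all comparisons of peak width and number.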
